A study of Homo sapiens with 18 samples.

Results

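The 42 genes described here are interferon-stimulated genes of the type I interferon response, chosen as a list of gene symbols and matched to the gene identifiers of the count tables. All 42 were found among 60483 identifiers, and all 42 were among the 16122 genes that passed the filter on low counts. Their reads were counted in HAIR-M cells, an established human line labelled MZL, for marginal zone lymphoma, which arises from mature B cells. The cultures were exposed to copanlisib at 5 nM or to its solvent DMSO for 4, 8 or 12 h, with 3 libraries in each of the 6 groups and 18 in all. Copanlisib blocks PI3K, the phosphoinositide 3-kinases. All 6 groups share this 1 cell line, and the labels name no added interferon and no genetic change. Whether the replicates are separate cultures is not stated in the labels, and the p-values therefore measure only library-to-library spread, which may be technical.

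Type I interferons bind the receptor pair IFNAR1 and IFNAR2, and the kinases JAK1 and TYK2 then phosphorylate STAT proteins, STAT2 among them. With IRF9 these form a complex that binds a DNA element, the interferon-stimulated response element (ISRE), before the genes described here. Their products sense viral RNA, block its translation, degrade it or tag proteins with the ubiquitin-like protein ISG15, and several of them (STAT2, IRF7, IRF9) are themselves parts of the pathway. B cells also transcribe many of these genes at a basal level without added interferon.

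Gene reads per library ranged from 13587017 to 25566761. A pair of libraries, replicates 1 and 2 of copanlisib at 4 h, was unlike the other 16: over all 18, unmapped reads made up 1.74% to 8.73% of reads and mitochondrial genes 9.07% to 12.6% of gene reads, and without these libraries the ranges were 1.74% to 2.82% and 9.07% to 10.5%. They differed from replicate 3 of their group by a chi-square per gene of 19.9 and 15.8 (sampling noise is 1), against 1.52 to 2.94 for the remaining replicate pairs. For that reason the 4 h counts, and the 4 h results that this changes, are also given for a fit in which replicate 3 is the single copanlisib library of that time. That lone library is assumed to vary like the other groups.

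The promoter windows of RefSeq (GRCh38.p14, 250 bases before and 50 after each annotated start) were available for 34 of the 42 genes, in 47 windows. IFIT2, MX2, OAS2, OASL, IRF7, DHX58, USP18 and TRIM22 were not among them. The core ISRE letters (GAAA, any 2 bases, GAAA), searched on both strands, were found for 22 of the 34 genes (64.7%), against 4.38% of the 27305 genes with a window. A longer form, the core letters followed by C, was found for 18 (52.9%, against 0.952%). The letters of the interferon-gamma activated site GAS, TTCNNNGAA, were found for 10 (29.4%, against 9.38%), some of which also hold an ISRE match. The FOXO letters GTAAACA, a motif of transcription factors that PI3K signalling keeps out of the nucleus, were found for 2, SAMD9L and CMPK2 (5.88%, against 4.19%). A match is a description of the letters in the window and does not show that a factor binds there.

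The 250 bases before the start are shown for the 4 genes with an ISRE match that had the highest average log2 fold change with copanlisib, and for the 2 such genes without one, so that the letters can be set beside their responses. For a gene with several windows, the window with the most matches before its start was chosen. Sequences run 5′ to 3′ on the strand of the gene (plus for IFIT3, RSAD2 and MX1, minus for SAMD9, SAMD9L and STAT2). Capitals mark the ISRE match, which appears as its reverse complement (TTTC, any 2 bases, TTTC) where it lies on the opposite strand.
SAMD9 chr7:93117980-93118229: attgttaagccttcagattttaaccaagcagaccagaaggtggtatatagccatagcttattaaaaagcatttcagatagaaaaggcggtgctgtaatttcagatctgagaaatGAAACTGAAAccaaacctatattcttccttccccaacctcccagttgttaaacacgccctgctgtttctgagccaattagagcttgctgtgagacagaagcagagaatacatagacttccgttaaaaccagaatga
IFIT3 chr10:89327747-89327996: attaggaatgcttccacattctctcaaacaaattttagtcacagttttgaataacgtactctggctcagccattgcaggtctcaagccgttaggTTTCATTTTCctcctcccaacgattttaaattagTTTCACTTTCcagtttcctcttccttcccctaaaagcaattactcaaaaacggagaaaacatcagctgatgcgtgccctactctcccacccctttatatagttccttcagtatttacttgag
RSAD2 chr2:6877527-6877776: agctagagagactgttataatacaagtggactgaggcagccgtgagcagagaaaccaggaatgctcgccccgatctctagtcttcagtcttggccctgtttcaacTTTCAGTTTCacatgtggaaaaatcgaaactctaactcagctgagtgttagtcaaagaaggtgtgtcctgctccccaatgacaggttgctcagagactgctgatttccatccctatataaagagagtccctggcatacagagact
MX1 chr21:41431800-41432049: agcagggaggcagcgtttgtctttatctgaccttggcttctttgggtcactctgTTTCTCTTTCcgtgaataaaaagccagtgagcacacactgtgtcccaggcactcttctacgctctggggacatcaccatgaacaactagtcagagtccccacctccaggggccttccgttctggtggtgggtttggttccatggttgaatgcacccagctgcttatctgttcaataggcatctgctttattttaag
SAMD9L chr7:93148386-93148635: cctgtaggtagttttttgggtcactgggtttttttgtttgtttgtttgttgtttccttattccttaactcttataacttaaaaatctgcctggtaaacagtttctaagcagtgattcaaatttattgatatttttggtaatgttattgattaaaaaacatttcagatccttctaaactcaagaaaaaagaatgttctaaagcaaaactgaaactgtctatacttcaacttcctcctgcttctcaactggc
STAT2 chr12:56360108-56360357: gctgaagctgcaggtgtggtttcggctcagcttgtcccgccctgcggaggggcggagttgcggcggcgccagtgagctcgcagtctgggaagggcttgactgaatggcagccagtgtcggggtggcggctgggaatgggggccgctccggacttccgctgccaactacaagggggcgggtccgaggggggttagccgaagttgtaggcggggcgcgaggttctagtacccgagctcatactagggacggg
IFIT3 carried 2 matches in the window shown and SAMD9, RSAD2 and MX1 carried 1 each. The RSAD2 and MX1 bases shown lie inside the GENCODE 29 spans of these genes (chr2:6865806-6898239 and chr21:41420304-41459214). Another MX1 window, which begins at chr21:41420308, held its match after the start. SAMD9 and SAMD9L, neighbouring genes of related sequence, differed in this respect.

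**Figure D1:**
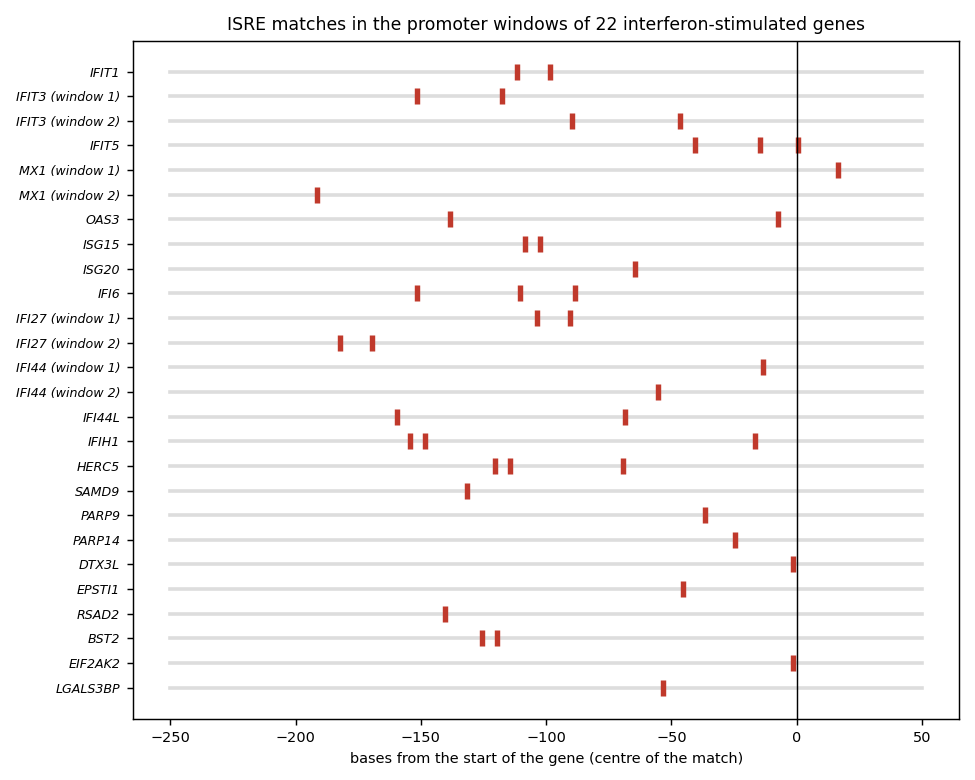
Positions of the ISRE letters (red ticks, centre of each match, both strands) in the RefSeq promoter windows (grey bars) of the 22 interferon-stimulated genes that hold a match, in bases from the annotated start. Most matches lie before the start (20 of the 22 genes have one there), and 4 of the genes appear with 2 windows each.

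Genes with and without the ISRE letters were both among those called. At 4 h, 14 of the 22 genes with a match were called higher and 4 lower with copanlisib (median log2 fold change 0.24), and 10 of the 12 without a match were called higher (median 0.38). The 4 lower genes were ISG15, ISG20, IFI6 and BST2. With replicate 3 as the only copanlisib library at 4 h, their log2 fold changes were -0.03, -0.16, -0.04 and -0.07. At 12 h the counts were 7 of 22 (median 0.15) and 8 of 12 (median 0.23). Among all genes tested, 17.7% were called higher and 20.7% lower at 4 h, and 13.8% higher and 16.5% lower at 12 h. The 4 lower of the 22 lie near the share of all genes called lower. The counts by ISRE match are over genes chosen as one list, with no test between the groups of genes. They were not made for the fit with replicate 3 alone.

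Levels per length differed widely among the 42 genes. On the RPKM scale (reads scaled by library size and by summed GENCODE 29 exon length, computed here), BST2, the membrane tether of budding virus particles, averaged 93.6 RPKM with copanlisib and 109.7 RPKM with DMSO at 4 h. IFIT3 averaged 84.7 RPKM with copanlisib and 56.1 RPKM with DMSO, ADAR 55.0 RPKM with copanlisib and 51.1 RPKM with DMSO, and MX1 47.7 RPKM with copanlisib and 42.7 RPKM with DMSO. The interferon-stimulated genes with the lowest levels were LGALS3BP (0.209 RPKM with copanlisib and 0.162 RPKM with DMSO), IFI27 (0.242 RPKM with copanlisib and 0.324 RPKM with DMSO) and RSAD2 (0.866 RPKM with copanlisib and 0.564 RPKM with DMSO). LGALS3BP had 5 to 30 reads per library and IFI27 16 to 45. For LGALS3BP the 95% interval of the log2 fold change at 4 h was -0.37 to 1.06.

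At each time more of these transcripts were higher than lower with copanlisib. Of the 42 genes, 28 were called higher and 4 lower at 4 h at an edgeR adjusted p under 0.05 (median log2 fold change 0.24). At 8 h, 19 were higher and 1 lower (median 0.16), and at 12 h, 21 and 0 (median 0.22). Among all genes tested, 17.7% were called higher and 20.7% lower at 4 h, 14.8% higher and 18.3% lower at 8 h, and 13.8% higher and 16.5% lower at 12 h, with medians of 0.01, 0.02 and 0.00. No log2 fold change with copanlisib reached 1. At 12 h none of the 42 was lower at an unadjusted p under 0.05 by edgeR, DESeq2 or limma-voom, while edgeR gave 25 that were higher at that level. With replicate 3 as the only copanlisib library at 4 h, 18 were higher and 0 lower (1 lower at an unadjusted p under 0.05; median 0.20), against 8.86% and 13.4% of all genes in that fit, and 17 of the 18 were among the 28.

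Called higher at all 3 times were 14 genes, against 4.99% of all genes tested: IFIT2, IFIT3, MX1, MX2, OAS1, IFI44L, STAT2, IRF1, HERC5, SAMD9L, EPSTI1, TRIM22, ADAR and SP110. The 4 h calls of MX1, OAS1 and ADAR did not hold with replicate 3 alone, at log2 fold changes of 0.11, 0.13 and 0.13. None of the 42 was lower at all 3 times (0, against 8.32% of all genes tested). Another 9 were higher at 2 times (OAS2, IFI44, RIGI, DHX58, IRF7, HERC6, XAF1, SAMD9 and PARP14) and 8 at 1 time (IFIT1, ISG20, IFIH1, PARP9, DTX3L, CMPK2, RSAD2 and EIF2AK2). Called lower at any time were 5 genes, IFIT5 at 8 h and ISG15, ISG20, IFI6 and BST2 at 4 h. The 7 genes called at no time in the fit of all 18 libraries were OAS3, OASL, IFI27, IFI35, IRF9, USP18 and LGALS3BP. All 6 groups were in 1 fit, and the calls at 8 h and 12 h also moved with the 4 h libraries. Without replicate 3 of copanlisib at 4 h, 22 genes were higher at 8 h and 27 at 12 h, in place of 19 and 21. More genes were also called higher at both times with replicate 3 as the only copanlisib library at 4 h. IFI6 was among them at both times, and ISG15 and USP18 were at 12 h. In bulk RNA, a larger share of cells that transcribe a gene and more RNA per cell cannot be told apart.

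**Figure D2:**
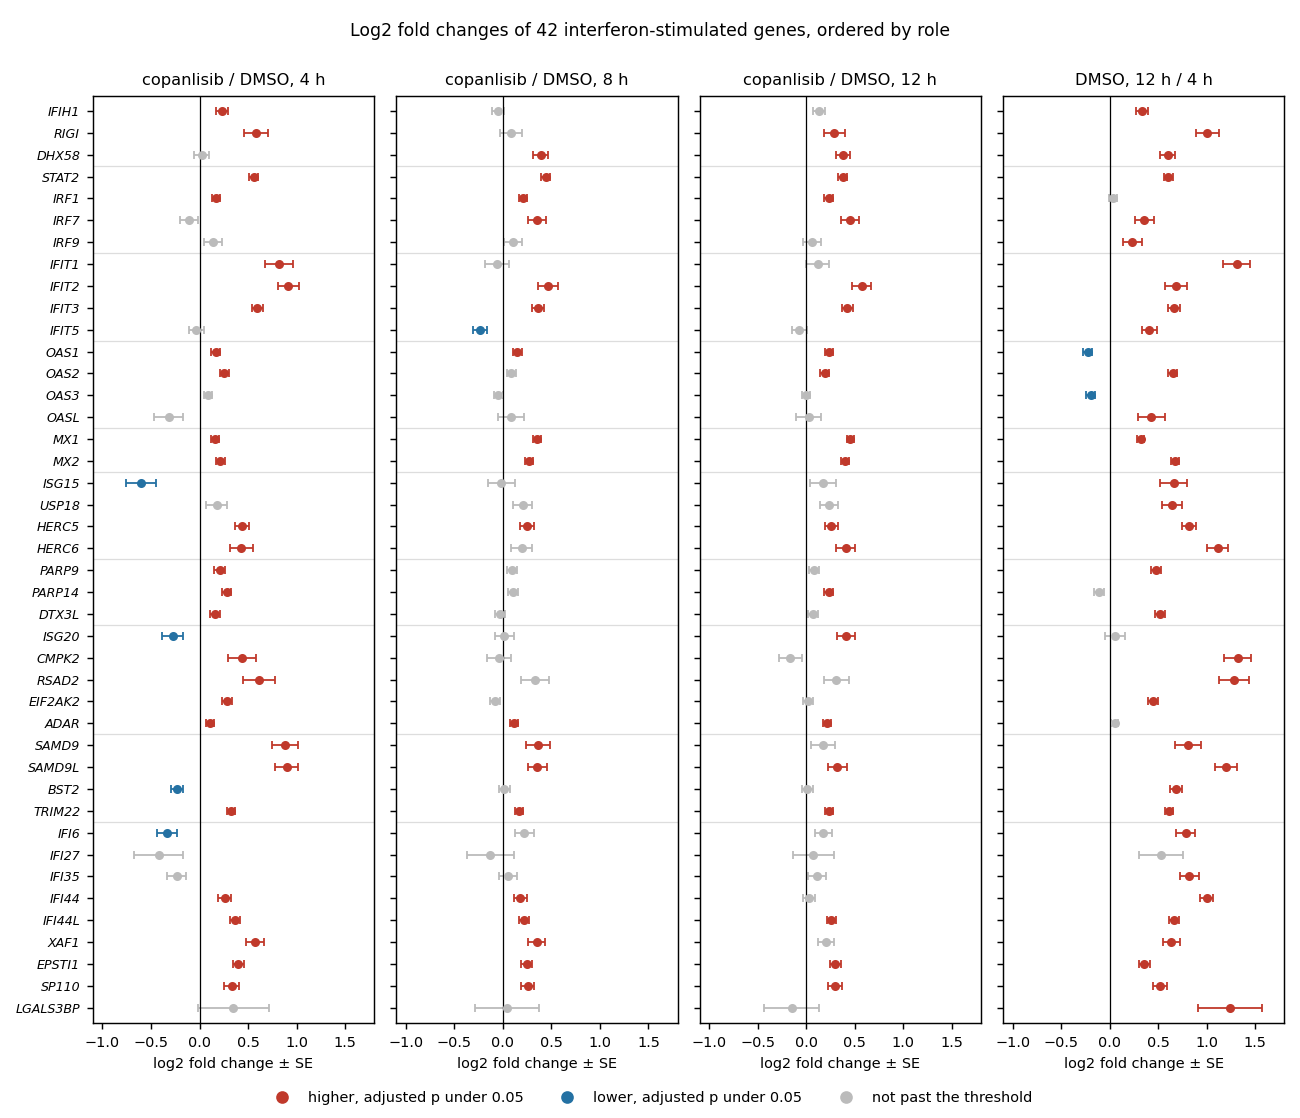
Log2 fold change ± SE of each of the 42 interferon-stimulated genes, grouped by role from top to bottom, for copanlisib over DMSO at 4, 8 and 12 h and for DMSO at 12 h over 4 h. Red and blue points passed an edgeR adjusted p of 0.05. Most points lie right of 0 in all 4 panels, and those of DMSO over time lie farthest right, with a median of 0.62.

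**Figure D3:**
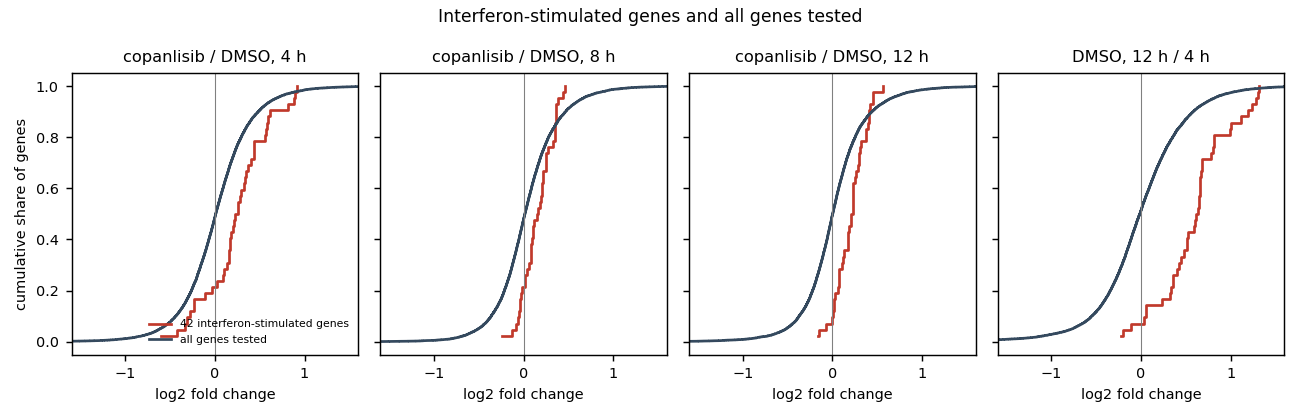
Cumulative share of genes (vertical axis) at or under each log2 fold change (horizontal axis) for the 42 interferon-stimulated genes (red) and the 16122 genes tested (dark). The red curve is shifted to the right in each panel, by a median of 0.24, 0.16 and 0.22 with copanlisib at 4, 8 and 12 h and of 0.62 in DMSO over time, while the dark curve is centred near 0.

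Among the transcription factors, STAT2, the subunit through which interferon receptors drive the ISRE complex, was called higher at all 3 times. It was at 136, 134 and 134 CPM with copanlisib and 85.9, 94.2 and 93.7 CPM with DMSO at 4 h. At 8 h it stood at 164, 163 and 162 CPM with copanlisib and 121, 120.4 and 119 CPM with DMSO, and at 12 h at 179.9, 177 and 184 CPM with copanlisib and 146, 137 and 134 CPM with DMSO. At each time every copanlisib library lay above every DMSO library. The log2 fold changes were 0.56 ± 0.04, 0.44 ± 0.04 and 0.37 ± 0.04 (SE; edgeR adjusted p = 3e-10, 1.3e-08 and 2.1e-07), and 0.55 at 4 h with replicate 3 alone. IRF1, an activator of interferon and antigen presentation genes, rose at all 3 times: 117, 120.4 and 122 CPM with copanlisib and 102, 108 and 109 CPM with DMSO at 4 h, with log2 fold changes of 0.17 ± 0.04, 0.21 ± 0.04 and 0.23 ± 0.04 at the 3 times. Its copanlisib libraries lay above the DMSO libraries at 8 h (130.1, 127 and 124 CPM with copanlisib and 109.5, 109.5 and 111 CPM with DMSO) and at 12 h (131, 125 and 128 CPM with copanlisib and 110.0, 108 and 109.6 CPM with DMSO) too.

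IRF7, which drives the later wave of interferon-alpha genes, was called higher at the later times. At 4 h it was at 34.3, 38.9 and 53.7 CPM with copanlisib and 42.6, 45.5 and 48.2 CPM with DMSO, so that replicates 1 and 2 of copanlisib lay under the DMSO libraries and replicate 3 above them. The log2 fold change at 4 h was -0.11 ± 0.10 (edgeR adjusted p = 0.39) with all 3 libraries and 0.24 (edgeR adjusted p = 0.0099) with replicate 3 alone. It was at 68.3, 66.7 and 65.4 CPM with copanlisib and 52.9, 53.1 and 51.2 CPM with DMSO at 8 h and at 82.5, 78.6 and 78.1 CPM with copanlisib and 55.9, 57.5 and 61.8 CPM with DMSO at 12 h, with no overlap between the groups. These later log2 fold changes were 0.35 ± 0.09 (edgeR adjusted p = 0.0039) and 0.45 ± 0.09 (edgeR adjusted p = 0.00035). IRF9, the DNA-binding subunit of the ISRE complex, was at 12.9, 13.4 and 14.2 CPM with copanlisib and 10.9, 12.4 and 13.3 CPM with DMSO at 4 h, and its log2 fold changes of 0.14 ± 0.09, 0.10 ± 0.09 and 0.06 ± 0.09 did not pass (intervals of 95%: -0.05 to 0.32, -0.07 to 0.28 and -0.12 to 0.24). Its libraries were at 14.5, 13.8 and 13.9 CPM with copanlisib and 12.4, 13.9 and 12.9 CPM with DMSO at 8 h and at 13.3, 15.2 and 16.7 CPM with copanlisib and 14.9, 15.5 and 13.1 CPM with DMSO at 12 h, and the groups overlapped at each time.

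The RNA sensors share a role in starting the interferon response to viral RNA. RIGI (also called DDX58), which binds short RNA ends, was at 9.79, 10.8 and 8.03 CPM with copanlisib and 6.14, 7.21 and 5.72 CPM with DMSO at 4 h, which gave 0.58 ± 0.12 on the log2 scale (edgeR adjusted p = 0.0005), and 0.33 (edgeR adjusted p = 0.14) with replicate 3 alone. At 8 h its groups overlapped, with 10.4, 10.2 and 11.1 CPM with copanlisib and 9.46, 11.9 and 8.46 CPM with DMSO (0.09 ± 0.11, not called). At 12 h it was at 15.9, 14.9 and 16.2 CPM with copanlisib and 12.9, 12.6 and 12.99 CPM with DMSO, again without overlap, and the log2 fold change was 0.29 ± 0.10 (edgeR adjusted p = 0.034), a call lost in 5 of the 18 fits that leave out 1 library, each of those from 12 h except replicate 2 of copanlisib. DHX58, which encodes the regulatory sensor LGP2, was at 45.2, 41.8 and 42.8 CPM with copanlisib and 32.5, 36.4 and 30 CPM with DMSO at 8 h, and its log2 fold changes were 0.02 ± 0.08, 0.39 ± 0.07 and 0.37 ± 0.07 at 4, 8 and 12 h, the last 2 called. Its groups overlapped at 4 h, at 24.7, 27.5 and 30.9 CPM with copanlisib and 28.9, 25.97 and 27.2 CPM with DMSO, and did not at 12 h, at 55.5, 51.4 and 53.4 CPM with copanlisib and 43.03, 41.2 and 39.5 CPM with DMSO. IFIH1, which encodes the long-RNA sensor MDA5, was called at 4 h (0.23 ± 0.06), though not without replicate 2 of copanlisib (edgeR adjusted p = 0.056), and its value was 0.01 with replicate 3 alone.

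In the IFIT family, whose proteins bind viral RNA and halt its translation, 3 of the 4 genes rose at 4 h. They lie side by side on chromosome 10. Coordinates are those of GENCODE 29 on GRCh38. IFIT2 (chr10:89283694-89309276) had the largest log2 fold change of the 42 genes at each time, though at 4 h RSAD2, LGALS3BP, SAMD9L and SAMD9 lay above it with replicate 3 alone. It was at 28.03, 28.1 and 19.98 CPM with copanlisib and 13.5, 13.5 and 13.4 CPM with DMSO at 4 h. By 8 h the libraries were at 28.98, 30.6 and 28.8 CPM with copanlisib and 20.96, 24.8 and 18.2 CPM with DMSO. By 12 h they were at 32.4, 31.2 and 32.6 CPM with copanlisib and 23.6, 21.5 and 19.9 CPM with DMSO. The copanlisib libraries lay above the DMSO libraries throughout, with log2 fold changes of 0.92 ± 0.11, 0.46 ± 0.10 and 0.57 ± 0.10 (edgeR adjusted p = 2.6e-07, 0.00073 and 8.7e-05), and 0.57 at 4 h with replicate 3 alone.

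IFIT3 (chr10:89327894-89340971) was at 233, 244 and 194 CPM with copanlisib and 153, 144 and 148 CPM with DMSO at 4 h. By 8 h the libraries were at 241, 248 and 257 CPM with copanlisib and 194, 201 and 184 CPM with DMSO. By 12 h they were at 322, 317 and 303 CPM with copanlisib and 241, 226 and 236 CPM with DMSO. None of these groups overlapped, and the log2 fold changes were 0.60 ± 0.06, 0.36 ± 0.06 and 0.42 ± 0.06 (0.39 at 4 h with replicate 3 alone). IFIT1 (chr10:89392546-89406486) was called at 4 h alone. It was at 10.4, 12.5 and 8.504 CPM with copanlisib and 5.697, 5.95 and 6.15 CPM with DMSO at 4 h, which gave 0.82 ± 0.14 on the log2 scale (edgeR adjusted p = 5.8e-05; 0.52 with replicate 3 alone, edgeR adjusted p = 0.02). By 8 h it was at 11.3, 10.7 and 11.9 CPM with copanlisib and 11.97, 14.1 and 8.97 CPM with DMSO, and by 12 h at 15.9, 14.9 and 16.96 CPM with copanlisib and 15.3, 12.99 and 15.8 CPM with DMSO, and the groups overlapped, with log2 fold changes of -0.06 ± 0.12 and 0.12 ± 0.12. IFIT5 (chr10:89414586-89421001) was the only gene of the 42 called lower at 8 h, at 21.8, 22.9 and 21.4 CPM with copanlisib and 24.4, 27.01 and 26.7 CPM with DMSO (-0.24 ± 0.07, edgeR adjusted p = 0.015). That call was lost without replicate 3 of copanlisib, replicate 2 of DMSO or replicate 3 of DMSO at 8 h (edgeR adjusted p up to 0.071). It was at 20.8, 22.4 and 17.7 CPM with copanlisib and 21.2, 21.7 and 19.6 CPM with DMSO at 4 h and at 26.6, 25.3 and 26.9 CPM with copanlisib and 26.9, 27.7 and 28.2 CPM with DMSO at 12 h, not called at either time.

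The OAS family makes the second messenger that activates RNase L, and the MX family encodes GTPases that trap viral nucleocapsids. MX1 (chr21:41420304-41459214) was at 404, 430.5 and 398 CPM with copanlisib and 376, 362 and 367 CPM with DMSO at 4 h. By 8 h the libraries were at 498, 506 and 508 CPM with copanlisib and 389.6, 403 and 391 CPM with DMSO. By 12 h they were at 639, 621 and 624 CPM with copanlisib and 465, 455 and 457 CPM with DMSO. The groups lay apart at each time, with log2 fold changes of 0.16 ± 0.04, 0.35 ± 0.04 and 0.45 ± 0.04 (edgeR adjusted p = 0.0018, 5.3e-08 and 9.5e-10). With replicate 3 alone the 4 h value was 0.11 (edgeR adjusted p = 0.07). Its neighbour MX2 followed at 0.21 ± 0.04, 0.27 ± 0.04 and 0.40 ± 0.04.

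OAS1 was at 110.5, 109 and 106 CPM with copanlisib and 97.7, 96.01 and 96.5 CPM with DMSO at 4 h. By 8 h the libraries were at 97.8, 102 and 101 CPM with copanlisib and 90.3, 90.5 and 90.01 CPM with DMSO. By 12 h they were at 98.7, 93.9 and 98.6 CPM with copanlisib and 81.7, 81.2 and 84.7 CPM with DMSO. The copanlisib libraries were the higher ones at every time, by log2 fold changes of 0.17 ± 0.04, 0.15 ± 0.04 and 0.23 ± 0.04 (0.13 at 4 h with replicate 3 alone, edgeR adjusted p = 0.081). OAS2 was called higher at 4 h (0.25 ± 0.05), at 112, 121 and 111 CPM with copanlisib and 94.1, 98.2 and 96.3 CPM with DMSO. It was called at 12 h too (0.19 ± 0.04), at 169.5, 172 and 174 CPM with copanlisib and 157, 146 and 149.8 CPM with DMSO. At 8 h it was at 139.7, 144 and 146 CPM with copanlisib and 136, 139 and 129.7 CPM with DMSO, with no overlap, and was not called (0.08 ± 0.05, edgeR adjusted p = 0.16). OAS3 was at 245, 228 and 239.6 CPM with copanlisib and 246, 238 and 231 CPM with DMSO at 12 h and was not called at any time, with 95% intervals of 0.00 to 0.17, -0.13 to 0.04 and -0.09 to 0.08 for the log2 fold change at 4, 8 and 12 h. It was at 289, 288 and 293 CPM with copanlisib and 270.3, 283 and 266 CPM with DMSO at 4 h and at 239, 238 and 249 CPM with copanlisib and 247, 259 and 244 CPM with DMSO at 8 h. OASL, which binds RIGI and does not make the messenger, was not called either, with log2 fold changes of -0.32 ± 0.15, 0.08 ± 0.14 and 0.02 ± 0.13 from 59 to 155 reads per library.

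Of ISG15 and 3 genes for enzymes linked to it, 2 were called higher and 1 lower at 4 h. The HERC5 ligase, which attaches ISG15, was called higher at all 3 times (0.44 ± 0.07, 0.25 ± 0.07 and 0.26 ± 0.07), and its relative HERC6 at 4 h (0.43 ± 0.12) and 12 h (0.40 ± 0.09). With replicate 3 alone the 4 h values were 0.21 for HERC5 (edgeR adjusted p = 0.035) and 0.27 for HERC6 (edgeR adjusted p = 0.27), the HERC6 call being lost. USP18, which removes ISG15 and also dampens the receptor, was not called in the fit of all 18 libraries (0.18 ± 0.11, 0.21 ± 0.10 and 0.23 ± 0.09). ISG15 itself was at 11.7, 11.3 and 22.3 CPM with copanlisib and 24.1, 20.3 and 24.2 CPM with DMSO at 4 h. Replicates 1 and 2 of copanlisib were the lowest of the 6 libraries and replicate 3 lay within the DMSO range. The log2 fold change of -0.60 ± 0.15 (edgeR adjusted p = 0.0026) was -0.03 (edgeR adjusted p = 0.9) with replicate 3 alone. At 8 h ISG15 was at 26.5, 26.8 and 25.97 CPM with copanlisib and 28.8, 25.8 and 25.1 CPM with DMSO. At 12 h it was at 44.3, 37.4 and 39.8 CPM with copanlisib and 37.6, 32.7 and 37.6 CPM with DMSO. Neither comparison passed in the fit of all 18 libraries (-0.02 ± 0.14 and 0.17 ± 0.13).

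**Figure D4:**
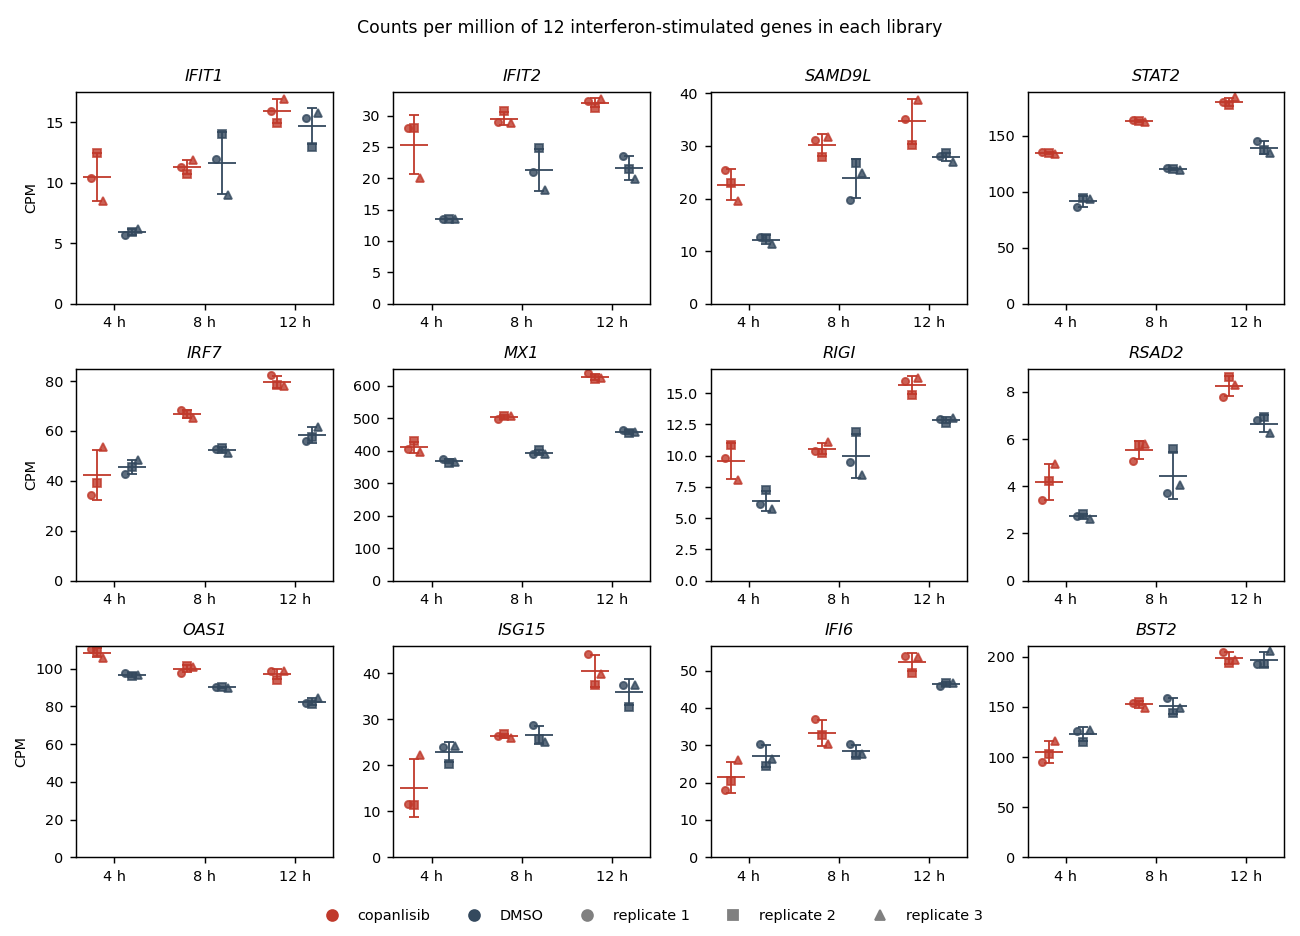
CPM (vertical axis, from 0) of 12 interferon-stimulated genes in each library at 4, 8 and 12 h, copanlisib (red) left of DMSO (blue). Symbols are replicates, and horizontal bars with whiskers are the mean ± SD of 3 libraries. STAT2 and IFIT2 stay apart at every time, IFIT1 is apart at 4 h and overlaps later, MX1 parts more widely with time, and for ISG15, IFI6 and IRF7 replicates 1 and 2 of copanlisib at 4 h lie under replicate 3.

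Effectors that act on RNA and nucleotides were called in both directions at 4 h, 4 higher and 1 lower of 5. RSAD2 (viperin), which makes a chain-terminating nucleotide, was at 3.39, 4.23 and 4.94 CPM with copanlisib and 2.74, 2.82 and 2.61 CPM with DMSO at 4 h (0.61 ± 0.17, edgeR adjusted p = 0.0046; 0.86 with replicate 3 alone). Its log2 fold changes of 0.33 ± 0.14 and 0.31 ± 0.13 at 8 and 12 h did not pass. Its libraries were at 5.08, 5.73 and 5.79 CPM with copanlisib and 3.73, 5.57 and 4.04 CPM with DMSO at 8 h and at 7.804, 8.65 and 8.3 CPM with copanlisib and 6.8, 6.92 and 6.24 CPM with DMSO at 12 h. CMPK2, a mitochondrial nucleotide kinase whose gene overlaps the start of RSAD2 on the opposite strand, was at 7.42, 7.31 and 7.49 CPM with copanlisib and 5.84, 5.24 and 5.39 CPM with DMSO at 4 h (0.44 ± 0.15, edgeR adjusted p = 0.021), a call lost without replicate 2 or replicate 3 of DMSO at 4 h (edgeR adjusted p up to 0.069) and with replicate 3 alone (0.46, edgeR adjusted p = 0.074). Later its groups overlapped, at 10.7, 8.94 and 12.3 CPM with copanlisib and 11.7, 12.8 and 8.02 CPM with DMSO at 8 h and at 13.1, 11.5 and 11.9 CPM with copanlisib and 14.5, 12.6 and 13.8 CPM with DMSO at 12 h. EIF2AK2, the kinase PKR that stops translation, was called at 4 h (0.29 ± 0.05), a call lost with replicate 3 alone (0.14, edgeR adjusted p = 0.059). ADAR, which edits adenosines in double-stranded RNA, was called at all 3 times with small changes (0.11 ± 0.04, 0.11 ± 0.04 and 0.21 ± 0.04). It was at 527, 532 and 539.7 CPM with copanlisib and 493, 511 and 482 CPM with DMSO at 4 h, and at 539, 546 and 544 CPM with copanlisib and 507, 515 and 484 CPM with DMSO at 8 h. At 12 h it was at 601, 587 and 597 CPM with copanlisib and 519, 532 and 488 CPM with DMSO, and the groups did not overlap at any of these times. The ADAR calls at 4 h and 8 h were lost in 6 and 5 of the 18 fits that leave out 1 library (edgeR adjusted p up to 0.16 and 0.15), and the 4 h call also with replicate 3 alone (0.13, edgeR adjusted p = 0.055). ISG20, an exonuclease, was at 7.37, 7.91 and 8.56 CPM with copanlisib and 10.1, 8.37 and 10.5 CPM with DMSO at 4 h and at 12.7, 13.2 and 13.9 CPM with copanlisib and 10.03, 10.2 and 9.82 CPM with DMSO at 12 h, and its log2 fold changes were -0.28 ± 0.10, 0.01 ± 0.10 and 0.41 ± 0.10 at 4, 8 and 12 h. The 4 h call was lost in 6 of those 18 fits (edgeR adjusted p up to 0.2). Its 8 h libraries were at 10.2, 9.61 and 10.3 CPM with copanlisib and 10.9, 10.1 and 8.46 CPM with DMSO. The 4 h value was -0.16 with replicate 3 alone.

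Among genes that restrict viruses, the neighbouring SAMD9 and SAMD9L, translation inhibitors active against poxviruses, were both called higher at 4 h. SAMD9 (chr7:93099513-93118023) was at 27.4, 22.3 and 19.2 CPM with copanlisib and 13.5, 14.1 and 10.1 CPM with DMSO and SAMD9L (chr7:93130055-93148369) at 25.4, 23.02 and 19.4 CPM with copanlisib and 12.7, 12.6 and 11.3 CPM with DMSO. The groups did not overlap, and the log2 fold changes were 0.88 ± 0.14 and 0.90 ± 0.11 (edgeR adjusted p = 1.1e-05 and 7.2e-07), or 0.62 and 0.68 with replicate 3 alone. SAMD9 was at 27.02, 25.2 and 27.6 CPM with copanlisib and 17.1, 22.5 and 22.9 CPM with DMSO at 8 h (0.36 ± 0.12; edgeR adjusted p up to 0.19 when 1 library was left out) and at 25.1, 20.8 and 27.96 CPM with copanlisib and 21.9, 24.04 and 20.01 CPM with DMSO at 12 h (0.17 ± 0.12, not called). SAMD9L was called at 8 h (0.36 ± 0.10) and 12 h (0.32 ± 0.10), the 8 h call being lost without replicate 1 of DMSO at 8 h (edgeR adjusted p = 0.097) and the 12 h call without replicate 3 of either group at 12 h (edgeR adjusted p up to 0.13). Its libraries were at 31.04, 27.9 and 31.7 CPM with copanlisib and 19.7, 26.8 and 24.9 CPM with DMSO at 8 h and at 35.1, 30.2 and 38.6 CPM with copanlisib and 28.04, 28.7 and 27.03 CPM with DMSO at 12 h, and the groups did not overlap. TRIM22, a nuclear ubiquitin ligase, was higher at all 3 times (0.33 ± 0.04, 0.16 ± 0.04 and 0.23 ± 0.04). BST2 was at 94.7, 103 and 116 CPM with copanlisib and 126, 115 and 127 CPM with DMSO at 4 h (-0.23 ± 0.06, edgeR adjusted p = 0.0032; -0.07 with replicate 3 alone) and had log2 fold changes of 0.02 ± 0.06 and 0.01 ± 0.06 later.

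The ADP-ribosylation genes PARP9, DTX3L and PARP14 lie within one stretch of chromosome 3, and PARP9 and DTX3L overlap at their starts on opposite strands. All 3 were called higher at 4 h (0.21 ± 0.05, 0.16 ± 0.05 and 0.28 ± 0.05), of which PARP14 passed with replicate 3 alone (0.16, edgeR adjusted p = 0.018). DTX3L lost its 4 h call in 3 of the 18 fits that leave out 1 library (edgeR adjusted p up to 0.14), and the values of PARP9 and DTX3L with replicate 3 alone were 0.11 and 0.03, not called. At 12 h PARP14 alone of the 3 was called (0.23 ± 0.05). Of the 9 remaining interferon-stimulated genes, 5 rose and 1 fell at 4 h, 5 rose at 8 h and 3 at 12 h. XAF1, a partner of the apoptosis inhibitor XIAP, was at 0.57 ± 0.09 and 0.35 ± 0.09 at 4 and 8 h, and at 0.29 at 4 h with replicate 3 alone (edgeR adjusted p = 0.01). EPSTI1 and the nuclear body protein SP110 were at 0.30 ± 0.06 and 0.30 ± 0.07 at 12 h. IFI6, a small mitochondrial and reticulum protein, was at 17.9, 20.4 and 26.04 CPM with copanlisib and 30.4, 24.6 and 26.4 CPM with DMSO at 4 h (-0.33 ± 0.10, edgeR adjusted p = 0.011), and its value was -0.04 (edgeR adjusted p = 0.83) with replicate 3 alone. The call was also lost without replicate 1 of DMSO at 4 h (edgeR adjusted p up to 0.086). IFI6 was at 37.1, 32.8 and 30.2 CPM with copanlisib and 30.3, 27.4 and 27.7 CPM with DMSO at 8 h. At 12 h it was at 53.99, 49.4 and 53.5 CPM with copanlisib and 45.8, 46.7 and 46.6 CPM with DMSO, with no overlap. Its log2 fold changes of 0.22 ± 0.10 and 0.18 ± 0.09 at these times were not called in the fit of all 18 libraries. IFI44 lost its 8 h call (0.18 ± 0.06) in 4 of the 18 fits that leave out 1 library (edgeR adjusted p up to 0.15) and its 4 h call (0.26 ± 0.07) with replicate 3 alone (0.19, edgeR adjusted p = 0.14). LGALS3BP, a secreted glycoprotein, was at 0.388, 0.845 and 1.01 CPM with copanlisib and 0.666, 0.807 and 0.272 CPM with DMSO at 4 h. At 8 h it was at 0.862, 0.675 and 0.795 CPM with copanlisib and 0.792, 0.908 and 0.515 CPM with DMSO. At 12 h it was at 1.33, 1.19 and 1.19 CPM with copanlisib and 1.28, 1.27 and 1.56 CPM with DMSO, and the groups overlapped at each time.

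The 4 h calls were spread unevenly over the GC content of the transcripts. Of the 23 genes under 50% GC, 22 were called higher and 0 lower at 4 h (median log2 fold change 0.33), and of the 19 genes at or above 50% GC, 6 were higher and 4 lower (median 0.09). With replicate 3 alone, 14 of the 23 were higher (median 0.23) and 4 of the 19 (median 0.13), with 0 lower in either. At 12 h, 14 of the 23 (median 0.23) and 7 of the 19 (median 0.18) were higher. Among all genes tested, whatever their GC content, 17.7% were called higher and 20.7% lower at 4 h, and 13.8% higher and 16.5% lower at 12 h. The 4 lower of the 19 at 4 h lie near that lower share. Shares of all genes by GC content are not given here, so the unevenness cannot be ascribed to these genes in particular. The 4 genes called lower at 4 h, ISG15, IFI6, BST2 and ISG20, all lie at or above 50% GC, and none of them was called with replicate 3 alone. Over the 19 genes of higher GC, the mean log2(CPM + 0.5) was 4.73, 4.82 and 4.95 in copanlisib replicates 1, 2 and 3 and 4.83, 4.83 and 4.81 in the DMSO libraries at 4 h. Over the 23 genes of lower GC it was 5.65, 5.68 and 5.47 with copanlisib and 5.203, 5.23 and 5.16 with DMSO, so that replicate 3 also lay above the DMSO libraries. The part of library quality in the 4 h values was not tested.

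**Figure D5:**
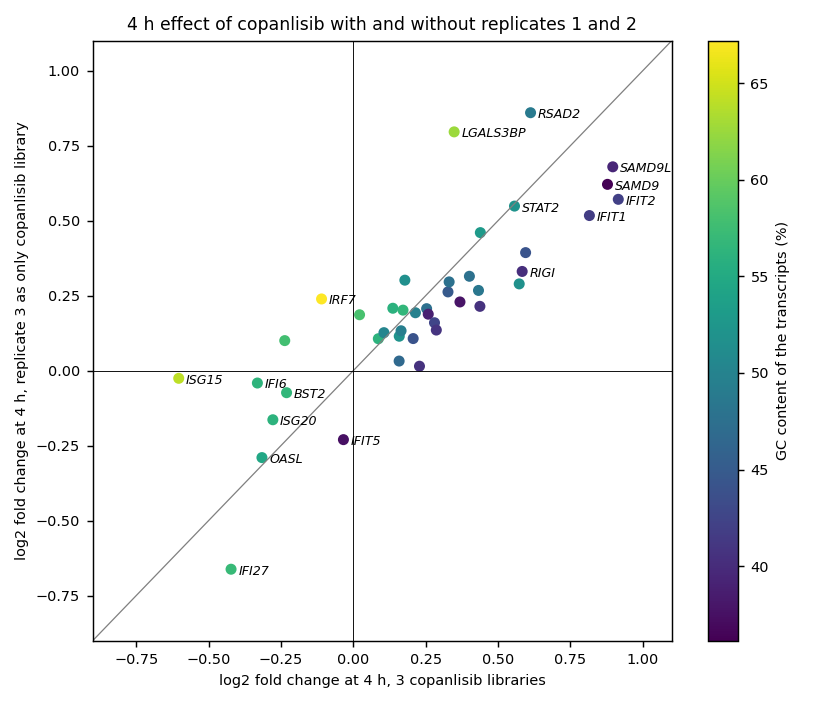
Log2 fold change at 4 h with all 3 copanlisib libraries (horizontal) and with replicate 3 as the only one (vertical) for the 42 interferon-stimulated genes, coloured by the GC content of their transcripts in percent. The grey line marks equal values. SAMD9, IFIT1 and IFIT2 lie above 0.50 on both axes, while ISG15 is at -0.60 on one axis and -0.03 on the other, and IRF7 changes sign.

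In DMSO alone, most of these transcripts rose over time. At 12 h against 4 h, 35 of the 42 genes were called higher and 2 lower (median log2 fold change 0.62), against 23.2% and 25.4% of all genes tested (median -0.01). At 8 h against 4 h, 26 were higher and 1 lower (median 0.32, against 13.9% higher and 16%, or 2574 of 16122, lower among all genes), and at 12 h against 8 h, 21 and 1 (median 0.24, against 13.4% and 12.4%). These are cells that received only solvent. Untreated cells and times before 4 h were not analysed here.

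Under DMSO, 7 genes passed a log2 fold change of 1 between 12 h and 4 h: IFIT1, RIGI, HERC6, SAMD9L, CMPK2, RSAD2 and LGALS3BP. CMPK2 was at 14.5, 12.6 and 13.8 CPM at 12 h and 5.84, 5.24 and 5.39 CPM at 4 h (1.32 ± 0.14, edgeR adjusted p = 1.2e-08), IFIT1 at 15.3, 12.99 and 15.8 CPM at 12 h and 5.697, 5.95 and 6.15 CPM at 4 h (1.31 ± 0.14, edgeR adjusted p = 1.6e-08) and RSAD2 at 6.8, 6.92 and 6.24 CPM at 12 h and 2.74, 2.82 and 2.61 CPM at 4 h (1.28 ± 0.16, edgeR adjusted p = 1.6e-07). For these 3 genes the lowest 12 h library lay above the highest 4 h library. LGALS3BP was at 1.28, 1.27 and 1.56 CPM at 12 h and 0.666, 0.807 and 0.272 CPM at 4 h (1.24 ± 0.33, edgeR adjusted p = 0.0028). SAMD9L drifted by 1.20 ± 0.11, HERC6 by 1.11 ± 0.11 and RIGI by 1.01 ± 0.12.

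The drift was shared by genes that were and were not called for the drug. OASL, IFI35, IRF9, USP18 and LGALS3BP were called higher over time in DMSO and at no time for copanlisib, with drifts of 0.43 ± 0.14, 0.82 ± 0.10, 0.23 ± 0.09, 0.64 ± 0.10 and 1.24 ± 0.33. The IRF9 drift was lost in 5 of the 18 fits that leave out 1 library (edgeR adjusted p up to 0.18) and the OASL drift without replicate 3 of DMSO at 4 h (0.096). STAT2 drifted by 0.60 ± 0.04, MX1 by 0.32 ± 0.04, IFIT3 by 0.66 ± 0.06, ISG15 by 0.66 ± 0.14 and IRF7 by 0.36 ± 0.09. IRF1, ADAR, ISG20 and PARP14, which copanlisib raised at 12 h, showed no called drift (0.03 ± 0.04, 0.05 ± 0.04, 0.06 ± 0.10 and -0.11 ± 0.05). The PARP14 drift was called lower (edgeR adjusted p = 0.022) in the fit with replicate 3 as the only copanlisib library at 4 h. OAS1 was at 81.7, 81.2 and 84.7 CPM at 12 h and 97.7, 96.01 and 96.5 CPM at 4 h (-0.23 ± 0.04, edgeR adjusted p = 0.00011) and OAS3 at 246, 238 and 231 CPM at 12 h and 270.3, 283 and 266 CPM at 4 h (-0.20 ± 0.04, edgeR adjusted p = 0.00036), the 2 genes that fell over time. OAS2, on the same stretch of chromosome 12, rose by 0.65 ± 0.05.

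Copanlisib-treated cells drifted too. At 12 h against their own 4 h libraries, 36 of the 42 genes were higher and 3 lower (median 0.60, against 25.6% and 26.3% of all genes tested). That 4 h group includes replicates 1 and 2 of copanlisib. With replicate 3 as its only library, as many genes were called higher and fewer lower. Averaged over the 42 genes, log2(CPM + 0.5) was 5.23, 5.29 and 5.23 in the copanlisib libraries and 5.03, 5.05 and 5.00 in the DMSO libraries at 4 h. It was 5.51, 5.48 and 5.53 with copanlisib and 5.33, 5.42 and 5.30 with DMSO at 8 h, and 5.81, 5.76 and 5.82 with copanlisib and 5.62, 5.58 and 5.59 with DMSO at 12 h. At each time the 3 copanlisib libraries were above the 3 DMSO libraries, and each group lay above the group of the same treatment at the time before.

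The drug effect on 15 of the 42 genes differed between 12 h and 4 h. Tested as the difference of the 2 effects, 8 genes had a higher log2 fold change at 12 h and 7 a lower one, against 8.98% and 7.69% of all genes tested. The highest differences were those of ISG15 (0.78 ± 0.20, edgeR adjusted p = 0.0097), ISG20 (0.69 ± 0.14, edgeR adjusted p = 0.002), IRF7 (0.56 ± 0.13, edgeR adjusted p = 0.005) and IFI6 (0.51 ± 0.14, edgeR adjusted p = 0.012). The lowest were those of SAMD9 (-0.71 ± 0.18, edgeR adjusted p = 0.01) and IFIT1 (-0.70 ± 0.19, edgeR adjusted p = 0.011). With replicate 3 as the only copanlisib library at 4 h, 2 were called, both higher: MX1 (0.34, edgeR adjusted p = 8.1e-05) and ISG20 (0.57, edgeR adjusted p = 0.034), against 2.63% and 2.66% of all genes. In that fit ISG15 was at 0.20, IRF7 at 0.21, SAMD9 at -0.45 and IFIT1 at -0.40, none of them called. Leaving out 1 library ended the ISG15 call (replicate 2 of copanlisib at 4 h, edgeR adjusted p = 0.053) and the SAMD9 call (replicate 3 of DMSO at 4 h, 0.052), and 6 of the 15 calls were kept in all 18 such fits. Between 12 h and 8 h, none of the 42 effects differed by edgeR, DESeq2 or limma-voom (3, 4 and 3 were higher at an unadjusted p under 0.05, and 0 lower in each), against 0.0372% higher and 0.0186% lower of all genes. Between 8 h and 4 h, 6 were higher and 7 lower, against 9.29% and 9.86%, and with replicate 3 alone 1 and 1, against 1.06% and 1.34%.

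The upstream parts of the pathway were looked up in lists chosen for this purpose. The shares of all genes tested that were called, 17.7% higher and 20.7% lower at 4 h, 14.8% higher and 18.3% lower at 8 h, and 13.8% higher and 16.5% lower at 12 h, are the background of the counts in each list. Of 21 interferon genes (alpha, beta, gamma, lambda and others), 8 had no read in any library and none reached an average of 1 CPM. Their summed level was 0.425 to 0.727 CPM with copanlisib and 0.706 to 0.888 CPM with DMSO at 4 h, and 0.425 to 0.778 CPM with copanlisib and 0.547 to 0.892 CPM with DMSO at 12 h. IFNB1 had 19 reads and IFNG 91 reads over all 18 libraries, and IFNG averaged 0.183 ± 0.072 CPM under copanlisib and 0.508 ± 0.20 CPM with DMSO at 4 h (SD, n = 3 each), too low to enter the test. The interferon proteins in the medium were not measured.

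Receptors and kinases of the pathway changed in part. Of 9 genes, 5 were higher and 1 lower at 4 h, 3 higher and 2 lower at 8 h, and 3 higher and 1 lower at 12 h, and with replicate 3 alone 3 and 1 at 4 h. IFNAR2, the signalling chain of the type I receptor, was at 118 ± 2.2 CPM under copanlisib and 94.4 ± 3.4 CPM with DMSO at 4 h (SD, n = 3 each), and its log2 fold changes were 0.33 ± 0.05, 0.24 ± 0.05 and 0.22 ± 0.05 at the 3 times. JAK1 was higher as well (0.31, 0.16 and 0.26, with 0.15 at 4 h with replicate 3 alone), as was IL10RB, a chain of the lambda receptor (0.34, 0.28 and 0.18). Its partner chain IFNLR1 was lower at 8 h (-0.22) and 12 h (-0.33). IFNAR1 was called at 4 h (0.37, and 0.13 with replicate 3 alone, not called) and TYK2 was lower at 4 h (-0.29, and -0.09 with replicate 3 alone, not called).

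Of 12 STAT and IRF genes outside the 42, 4 were higher and 4 lower at 4 h, 6 higher and 1 lower at 8 h, and 5 higher and 1 lower at 12 h (4 and 3 at 4 h with replicate 3 alone). STAT3, IRF2 and the plasma cell factor IRF4 were higher at the 3 times, IRF4 by 0.21, 0.24 and 0.37. IRF8, a B cell and myeloid factor, was lower at each time, at 533 ± 6.1 CPM under copanlisib and 748 ± 6.1 CPM with DMSO at 4 h (-0.49 ± 0.04, -0.19 ± 0.04 and -0.21 ± 0.04).

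Of 22 genes of nucleic acid sensing, 9 were higher and 6 lower at 4 h, 6 higher and 2 lower at 8 h, and 9 higher and 3 lower at 12 h (6 and 3 at 4 h with replicate 3 alone). The DNA sensor AIM2 (0.84, 0.39 and 0.56) and the adaptor STING1 (0.33, 0.38 and 0.41) were higher, and the DNA sensor CGAS, which makes the messenger that STING1 binds, was lower (-0.29, -0.41 and -0.39). TLR3, an endosomal receptor for double-stranded RNA, was lower at 8 h (-0.62) and 12 h (-0.47). The kinases IKBKE and IRAK4 were at 0.27 and 0.27 at 12 h.

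Among 12 inhibitors of interferon signalling, 3 were higher and 6 lower at 4 h, 3 higher and 3 lower at 8 h, and 3 higher and 4 lower at 12 h (2 and 6 at 4 h with replicate 3 alone). PTPN6, the phosphatase SHP-1, was at 246 ± 11.2 CPM under copanlisib and 428 ± 11.4 CPM with DMSO at 4 h, which gave -0.80 ± 0.04 on the log2 scale (edgeR adjusted p = 3.9e-13), and was at -0.69 ± 0.04 and -0.64 ± 0.04 later. SOCS3, a suppressor of JAK kinases, was lower at 4 h (-1.13 ± 0.14) and 12 h (-0.84 ± 0.17), and SOCS1 at 4 h (-0.76 ± 0.12, and -0.30 with replicate 3 alone). The ubiquitin ligase TRIM38 and the STAT inhibitor PIAS1 were higher, at 0.57 and 0.34 at 4 h.

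Of a further 68 interferon-stimulated genes outside the 42, 28 were higher and 15 lower at 4 h, 21 higher and 11 lower at 8 h, and 26 higher and 10 lower at 12 h, with medians of 0.08, 0.09 and 0.10 (23 and 11 of 70 at 4 h with replicate 3 alone). The lower counts lie near the share of all genes called lower. GBP4, a guanylate-binding protein, was at 296 ± 4.5 CPM under copanlisib and 178 ± 4.8 CPM with DMSO at 12 h (0.68 ± 0.05, 0.62 ± 0.05 and 0.74 ± 0.05 at the 3 times). CXCL10, a chemokine, was higher by 0.77, 0.55 and 0.40, and GBP3 and GBP5 by 0.48 and 0.50 at 12 h. Lower were PNPT1, an RNA-degrading enzyme of mitochondria (-0.52 at 12 h), the peptide transporter TAP2 (-0.38), the kinase RIPK2 (-0.51) and LAMP3 (-0.96). In DMSO over time (12 h against 4 h) 45 of the 68 were higher and 7 lower, with a median of 0.29, against 23.2% and 25.4% of all genes tested.

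Of 11 genes tested from a list of known responses to PI3K and FOXO signalling, 6 were higher and 3 lower at 4 h, 7 higher and 3 lower at 8 h, and 6 higher and 3 lower at 12 h (7 and 3 at 4 h with replicate 3 alone). PIK3IP1, which encodes an inhibitor of PI3K, was at 18.4 ± 1.6 CPM under copanlisib and 7.13 ± 0.41 CPM with DMSO at 12 h (1.38 ± 0.11, edgeR adjusted p = 4.4e-10). TXNIP, a FOXO target that limits glucose uptake, was higher by 1.41 at 12 h, while MYC and EGR1 were lower, at -0.60 and -1.25.

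The labelled cell type was set against marker lists. All 9 B cell markers (MS4A1, CD79A and others) averaged at least 1 CPM, with a summed level of 1735 to 1845 CPM with copanlisib and 1650 to 1680 CPM with DMSO at 4 h, and 2276 to 2324 CPM with copanlisib and 1913 to 1938 CPM with DMSO at 12 h. Plasmacytoid dendritic cells are a main source of interferon-alpha, and of their 7 markers CLEC4C and IL3RA had no read (IL3RA lies in a region shared by the X and Y chromosomes, where reads can match both copies and go uncounted) while LILRA4 and LAMP5 were above 1 CPM. Their summed level was 60.8 to 62.1 CPM with copanlisib and 56.5 to 62.2 CPM with DMSO at 4 h, and 73.8 to 77.4 CPM with copanlisib and 67.2 to 71.8 CPM with DMSO at 12 h. LILRA4 and LAMP5 moved in opposite directions. LILRA4 was at 7.12 ± 0.64 CPM under copanlisib and 16.6 ± 2.2 CPM with DMSO at 12 h (SD, n = 3 each), with log2 fold changes of -0.32, -0.62 and -1.22, and LAMP5 changed by 0.17, 0.46 and 0.37. All 6 were called, and neither 4 h value was called with replicate 3 alone (-0.21 and 0.15). The 9 myeloid markers summed to 5.07 to 6.64 CPM with copanlisib and 5.697 to 6.48 CPM with DMSO at 4 h, and to 8.78 to 11.3 CPM with copanlisib and 7.58 to 9.53 CPM with DMSO at 12 h, with CD163 at 0 and CD14, LYZ and S100A8 at 101, 22 and 11 reads over 18 libraries. The 10 T and NK cell markers summed to 13.1 to 17.4 CPM with copanlisib and 16.2 to 20.3 CPM with DMSO at 4 h, with CD3D and CD3G at 0. They summed to 15.5 to 16.1 CPM with copanlisib and 17.4 to 17.9 CPM with DMSO at 8 h, and to 12.1 to 13.5 CPM with copanlisib and 15.02 to 16 CPM with DMSO at 12 h, lower with copanlisib without overlap at both times. The 10 markers of stroma and epithelium summed to 91.3 to 92.2 CPM with copanlisib and 61.0 to 65.8 CPM with DMSO at 12 h, with LUM at 0, and 5 of their 6 tested genes were higher at 8 h and at 12 h. The labels' extraction protocol speaks of retinas, and the 11 retina markers summed to 8.72 to 14.02 CPM over all libraries, with RPE65 at 0. Averaged over all libraries, 2 of the 9 myeloid markers and 2 of the 10 T and NK cell markers reached 1 CPM. So did 6 of the 10 markers of stroma and epithelium and 2 of the 11 retina markers. The part of these levels in the results on interferon-stimulated genes was not tested.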

How the data were processed

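RNA-seq libraries of 18 HAIR-M samples were analysed from the deposited gene count tables. The authors sequenced, base-called with CASAVA 1.7, aligned to hg38 with STAR 2.5.2b and counted reads per gene, per the submitters' processing notes. The sources used here name no annotation version. The counts deposited by the authors are whole reads per Ensembl gene in 3 strand settings, and the stranded column 4 was used, which held 94.3% to 95.3% of the reads assigned to either strand. Counts without strand were an alternative. The summary lines of unmapped and unassigned reads name no gene and stayed out of library sizes and tests. Unmapped reads were 1.74% to 8.73% of a library. Gene reads were 13587017 to 25566761 per library. Genes with low counts were removed by edgeR's filterByExpr, which left 16122 of 60483.

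Counts were scaled by TMM and tested with edgeR 4.0.16 (glmQLFit and glmQLFTest, R 4.3.3) in 1 model of all 6 groups, with Benjamini-Hochberg adjustment over all genes tested and a threshold of 0.05. SE is the log2 fold change divided by the square root of F. The model was tested on simulated data. CPM used TMM-scaled library sizes. Alternatives were DESeq2 1.42.0, its size factors, limma-voom (limma 3.58.1), no filter, only the groups compared, a replicate block, stricter thresholds, each library left out and replicate 3 as the only copanlisib library at 4 h. The 42 genes, the pathway and marker lists and the promoter motifs were chosen with earlier results of these data known. Values in every library are given for called genes with the 4 highest and 2 lowest log2 fold changes in each copanlisib comparison, in DMSO at 12 h against 4 h and in the change of the effect, and for STAT2, IRF1, IRF7, IRF9, ISG15, IFIT1, IFIT3, MX1, OAS1, RIGI and LGALS3BP. From the pathway lists up to 4 genes per direction are named. Promoter sequences and gene starts are from RefSeq (GRCh38.p14).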

Additional observations from a re-analysis of the deposited data

Results flagged for a closer look

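For 15 of the 42 genes the effect of copanlisib differed between 12 h and 4 h by a test of the difference itself (edgeR, adjusted p under 0.05). As log2 fold change at 12 h minus that at 4 h, the difference was 0.78 for ISG15, 0.69 for ISG20, 0.56 for IRF7, 0.51 for IFI6, 0.35 for DHX58, 0.29 for MX1, 0.24 for BST2 and 0.19 for MX2. It was -0.71 for SAMD9, -0.70 for IFIT1, -0.60 for CMPK2, -0.58 for SAMD9L, -0.37 for XAF1, -0.27 for EIF2AK2 and -0.18 for STAT2. Of these 15 calls, 6 were kept in all 18 fits that leave out 1 library. The call was lost in 15 of those 18 fits for BST2, 13 for STAT2, and 10 each for MX2 and XAF1. It was lost in 7 each for DHX58 and CMPK2, 2 for EIF2AK2, and 1 each for ISG15 and SAMD9. With replicate 3 as the only copanlisib library at 4 h, MX1 (0.34) and ISG20 (0.57) were called and the other 13 were not.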

How the results depend on the processing

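With replicate 3 as the only copanlisib library at 4 h, 18 genes were higher and 0 lower at 4 h in place of 28 and 4, the change of the effect between 4 h and 12 h was called higher for 2 and lower for 0 in place of 8 and 7, and IRF7 at 4 h turned to 0.24 (edgeR adjusted p = 0.0099). With only the groups compared in the fit, 20 genes were higher and 0 lower at 4 h (28 and 4 in the full fit). That setting gave 23 and 2 at 8 h (19 and 1 in the full fit) and 27 and 0 at 12 h (21 and 0 in the full fit). At an adjusted p under 0.01, 2 were lower at 4 h, 0 at 8 h, and the change of the effect was called for 4 higher and 0 lower. With a log2 fold change of at least 1 as well, 0 were higher or lower with copanlisib at any time, 7 higher and 0 lower in DMSO over time, and 0 in the change of the effect. Leaving out 1 library gave 25 to 28 higher and 2 to 6 lower at 4 h, then 16 to 22 and 0 to 1 at 8 h. It gave 19 to 27 higher and 0 lower at 12 h, 34 to 36 and 2 to 3 in DMSO, and 4 to 9 and 2 to 15 in the change of the effect. The 4 h count of lower genes was 2 without replicate 1 or 2 of copanlisib or replicate 1 of DMSO at 4 h, and the 8 h count was 0 without replicate 3 of copanlisib or replicate 2 or 3 of DMSO at 8 h. In the change of the effect, 5 were higher without replicate 1 of copanlisib at 4 h, replicate 1 of DMSO at 4 h, replicate 1 of copanlisib at 12 h or replicate 2 of DMSO at 12 h, 4 were higher and 4 lower without replicate 2 of copanlisib at 4 h, and 15 were lower without its replicate 3, 2 without replicate 3 of DMSO at 4 h and 3 without replicate 1 of DMSO at 12 h. The cause of these changes was not tested. Same-numbered copanlisib and DMSO samples had deviations correlated by 0.182, 0.00953 and 0.397 at 4 h. The correlations were 0.0588, 0.0337 and 0.0708 for the 8 h samples and -0.0983, -0.0196 and -0.195 at 12 h over 9864 genes, so the numbers were not taken to pair samples. With the replicate block, 28 were higher and 4 lower at 4 h, 19 and 1 at 8 h, 21 and 0 at 12 h, 35 and 2 in DMSO, and 8 and 6 in the change of the effect. Of 5878 values of 210 single-gene results under the alternatives, 5495 kept their direction and side of the threshold, 316 lost the call, 66 gained one and 1 reversed.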
